A study of Mus musculus with 12 samples.

Results

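The 10 genes described here encode enzymes, inhibitors and structural proteins of the extracellular matrix: the matrix metalloproteinases Mmp12, Mmp13, Mmp14 and Mmp19, the membrane protease Adam8, the metalloproteinase inhibitors Timp1 and Timp2, and the matrix proteins Thbs1, Vcan and Fn1. They were chosen by symbol, and all 10 were found among the 24346 gene symbols listed for each of the 12 libraries. RNA-seq had been performed on myeloid-derived suppressor cells (MDSCs) sorted from orthotopic Hepa 1-6 tumors, a mouse hepatoma line injected into the liver of female C57BL/6J mice aged 6 to 8 weeks, to ask how inhibitors of the histone deacetylases HDAC1 to HDAC3 change these cells. All mice were wild type, and mice with an MDSC share above 20% in the blood had been selected for treatment. Vehicle, MS-275 (5 mg/kg) or CXD101 (5 mg/kg) was injected intraperitoneally each day for 10 days, starting 10 days after inoculation, and tumors were collected on day 21. The 6 groups were M-MDSCs (CD11b+Ly-6Chi Ly-6G-) and PMN-MDSCs (CD11b+Ly-6Cint Ly-6G+) under each of the 3 treatments, with 2 libraries per group. The dose and schedule were described for the M-MDSC groups, and those of the PMN-MDSC groups are taken to be the same. Whether a library pooled several animals was not given in the sources used here, so the p-values measure the spread between libraries.

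The extracellular matrix is cut by secreted and membrane-bound metalloproteinases, whose activity is held back by the tissue inhibitors of metalloproteinases (TIMPs). Myeloid cells in tumors supply many of these proteases and also make matrix proteins of their own, among them the adhesive glycoproteins thrombospondin-1 and fibronectin and the proteoglycan versican. Versican is also known as a transcript that marks blood monocytes, and macrophage elastase, the product of Mmp12, as one that marks macrophages.

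Levels are given in FPKM, a read density per transcript length and library depth, which allows levels of different genes to be set side by side. From the spacing of the smallest FPKM values, the libraries held an estimated 7080000 to 10700000 reads each, and replicate libraries correlated with r of 0.995 to 0.996 over all symbols. Neutrophil markers were higher in the PMN-MDSC libraries (summed 67501 to 266739 FPKM over the 5 of 6 listed markers found, against 10581 to 24771 in M-MDSC libraries), and their sum was above that of the monocyte markers in both cell types. The monocyte markers (5 of 5 found) summed to 1592 to 2673 FPKM in M-MDSC libraries and 661 to 1791 in PMN-MDSC libraries, and the treated PMN-MDSC libraries overlapped vehicle M-MDSCs. In vehicle M-MDSCs S100a8 and S100a9 made up most of the neutrophil sum, with Csf3r, Cxcr2 and Retnlg at 1.64 to 10.5 FPKM. Of the monocyte markers, these libraries held Ly6c2 at 1306 to 1360 FPKM, Ccr2 at 137 to 147 and Csf1r at 123. Fcgr1 was there at 24.6 to 25.1 FPKM and Cx3cr1 at 0.38 to 0.67. PMN-MDSC libraries also held Csf1r, the receptor of the macrophage growth factor M-CSF, at 145 to 160 FPKM under vehicle and 59.9 to 72.4 under the inhibitors. S100a8 and S100a9 together took 10.2% to 13.7% of all FPKM in the 2 vehicle PMN-MDSC libraries and 27.3% to 30.9% in the 4 treated ones. The summed FPKM of all genes also differed, at 656932 and 674361 in these vehicle libraries and 836748 to 860841 in the treated ones. The higher share thus does not show that other genes were lowered there. Values rescaled without both genes are given where they change a call. In bulk samples, fewer cells of a type and less RNA per cell cannot be told apart.

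Differences were tested with limma on log2(FPKM + 1), a scale that understates the change of genes near or below 1 FPKM, with Benjamini-Hochberg adjustment over all genes tested. A gene was called at an adjusted p under 0.05 and a fold change above 1.5. Of the 10 genes, 9 reached 1 FPKM in at least 2 libraries of each cell type and were tested. Mmp13 passed this filter in M-MDSCs only through the MS-275 libraries and Mmp14 only through the vehicle libraries. Timp1 did not pass and was not tested. Where a library is left out, its group holds 1 library, which is assumed to vary like those of the other groups in the model.

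Promoter sequences are shown for Mmp12 and Mmp13, which share a letter pattern at 1 of the Mmp12 starts and lie close together but moved in opposite directions with MS-275, and for Vcan, which fell in every comparison with vehicle. RefSeq windows on GRCm38.p6 of 250 bases before the transcript start matched 7 of the 10 genes, in 8 windows, 2 of them at different starts of Mmp12; Thbs1, Fn1 and Mmp19 had no entry. Mmp13 and Mmp12 are neighbors on chromosome 9, with 61049 bases between them. The printed Mmp12 window, on the plus strand at chr9:7347124-7347373, lies before a start from which shorter annotated transcripts begin, and within an intron of longer Mmp12 transcripts that begin upstream. The Mmp13 window is on the plus strand at chr9:7272264-7272513, and the Vcan window on the minus strand at chr13:89742513-89742762. Each is written 5′ to 3′ up to the base before the start. In the Mmp12 and Mmp13 windows, capitals mark TGANTCA, the letters bound by AP-1 factors, and TATAA. In the Vcan window, capitals mark GGGCGG or its complement CCGCCC, a GC box.
Mmp12: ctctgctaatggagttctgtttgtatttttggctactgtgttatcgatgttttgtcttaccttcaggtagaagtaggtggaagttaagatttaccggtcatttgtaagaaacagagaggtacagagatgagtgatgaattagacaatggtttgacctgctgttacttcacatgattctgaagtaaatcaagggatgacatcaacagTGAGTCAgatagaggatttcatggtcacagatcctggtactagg
Mmp13: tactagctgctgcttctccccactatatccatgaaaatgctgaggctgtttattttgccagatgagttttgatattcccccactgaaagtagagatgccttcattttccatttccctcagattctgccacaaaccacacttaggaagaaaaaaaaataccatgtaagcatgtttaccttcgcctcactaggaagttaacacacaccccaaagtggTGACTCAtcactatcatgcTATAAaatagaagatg
Vcan: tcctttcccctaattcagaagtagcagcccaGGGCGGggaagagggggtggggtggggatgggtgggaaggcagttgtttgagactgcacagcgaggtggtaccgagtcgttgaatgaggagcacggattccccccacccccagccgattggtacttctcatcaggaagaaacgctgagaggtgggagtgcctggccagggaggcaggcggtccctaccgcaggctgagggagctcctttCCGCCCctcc
The pattern TGANTCA, which reads alike on both strands, begins 44 bases before the start of Mmp12 and 35 bases before that of Mmp13, and was in 2 of the 8 windows. The other Mmp12 window, at the upstream start (chr9:7344147-7344396), held none of the 3 motifs. Over all 32851 RefSeq promoters, 6.75% of windows of the same length held it. TATAA, searched on both strands, was in 1 window, 16 bases before the start of Mmp13, against 22.8% of all promoters. GGGCGG, searched on both strands, was in 5 of the 8 windows, those of Adam8, Mmp14, Timp1, Timp2 and Vcan, against 32.7% of all promoters. The motifs were chosen after the values of the genes had been seen, and a match describes letters and not a site that is used.

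Thbs1 rose, and Mmp12 and Vcan fell, under each inhibitor in each cell type. In M-MDSCs, MS-275 raised Thbs1, Fn1 and Mmp13 and lowered Mmp12, Vcan and Mmp14, which is 6 of the 9 genes tested beside 17.5% of all 11078 genes. In M-MDSCs, CXD101 raised Thbs1 and lowered Mmp12, Vcan and Mmp14, 4 of 9 beside 8.13% of all genes. Both counts in M-MDSCs include Mmp13 or Mmp14, which entered the test only through a group in which they were high. Among the 7 genes at 1 FPKM or more in every M-MDSC group, 4 were called with MS-275 and 3 with CXD101. In PMN-MDSCs, MS-275 raised Thbs1, Mmp13 and Adam8 and lowered Mmp12, Vcan and Mmp14, 6 of 9 beside 28.7% of all 11184 genes. In PMN-MDSCs, CXD101 raised Thbs1 and Adam8 and lowered Mmp12 and Vcan, 4 of 9 beside 21.4% of all genes. Mmp19 and Timp2 were called in none of these 4 comparisons. The comparisons of both inhibitors with vehicle share the vehicle libraries.

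**Figure D1:**
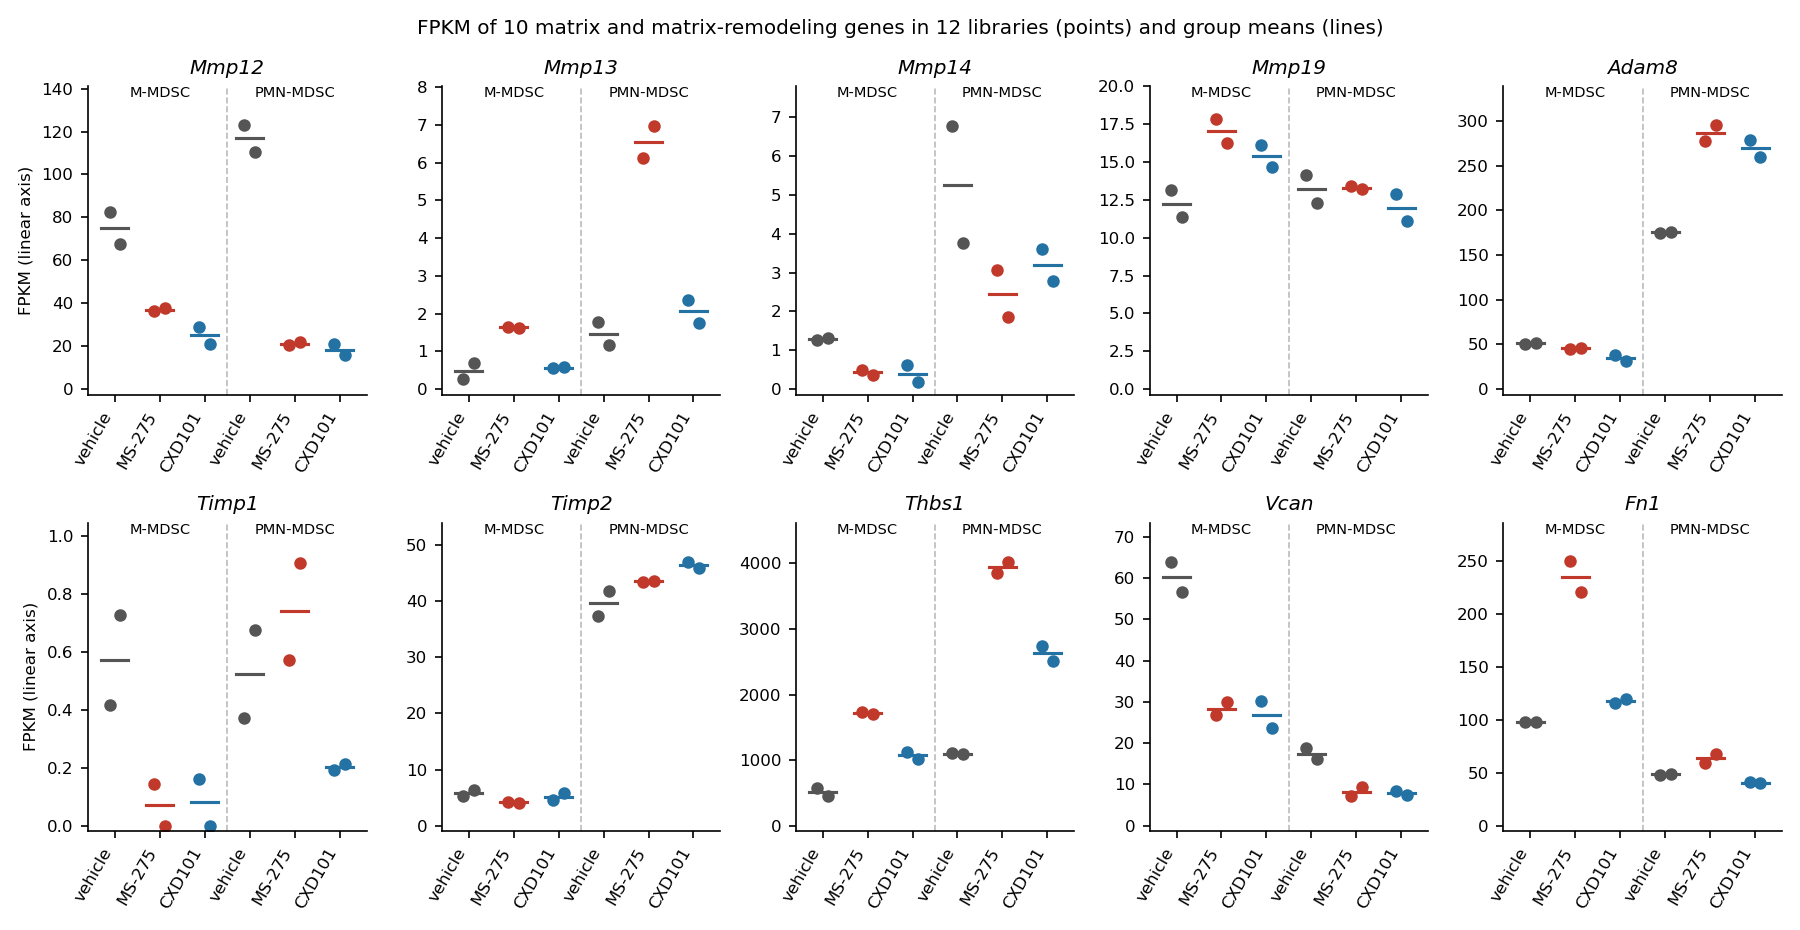
FPKM (linear axis from 0, scaled per panel) of the 10 genes in the 12 libraries, with 2 points per group and a line at their mean, M-MDSCs to the left and PMN-MDSCs to the right of the dashed line. Thbs1 was above the vehicle libraries of the same cell type in all treated libraries, Mmp12 and Vcan were below them, and Timp1 stayed under 1 FPKM throughout.

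Mmp12 (GRCm38 chromosome 9, 7344381 to 7369499, plus strand) encodes macrophage elastase, which degrades elastin. In M-MDSCs it was at 82.3 and 67.8 FPKM under vehicle, 36.2 and 37.6 under MS-275 and 28.9 and 21.1 under CXD101. PMN-MDSC libraries held it at 123 and 111 FPKM under vehicle, 20.5 and 22.0 under MS-275 and 20.8 and 15.9 under CXD101. Both vehicle libraries were above all treated libraries in each cell type, whereas the treated PMN-MDSC groups overlapped each other, and MS-275-treated PMN-MDSCs overlapped CXD101-treated M-MDSCs.

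In M-MDSCs Mmp12 fell with MS-275 (log2 fold change -0.997, SE 0.14, adjusted p = 0.000722) and with CXD101 (log2 fold change -1.56, SE 0.14, adjusted p = 0.00026), and the difference between the inhibitors, 0.56 on the log2 scale, stayed below the fold limit (adjusted p = 0.0357). That difference was called without CXD101 M-MDSC replicate 1 (0.78, adjusted p = 0.0186) and after rescaling without S100a8 and S100a9 (0.61, adjusted p = 0.0237), median-of-ratios scaling (0.59, adjusted p = 0.0301) or quantile normalization (0.64, adjusted p = 0.0296). In PMN-MDSCs the mean FPKM was 5.49-fold lower under MS-275 (log2 fold change -2.40, SE 0.12, adjusted p = 7.57e-06) and 6.36-fold lower under CXD101 (log2 fold change -2.62, SE 0.12, adjusted p = 8.46e-06). The fall was larger in PMN-MDSCs than in M-MDSCs by 1.41 on the log2 scale under MS-275 (95% CI 0.93 to 1.89, adjusted p = 0.000964) and by 1.06 under CXD101 (95% CI 0.58 to 1.54, adjusted p = 0.00592). Under vehicle the order was the reverse, and PMN-MDSCs exceeded M-MDSCs by 0.64 (adjusted p = 0.0041). This last difference no longer met the fold limit without vehicle M-MDSC replicate 2 (0.50) or vehicle PMN-MDSC replicate 1 (0.56). The macrophage markers (6 of 6 found) summed to 145 to 147 FPKM in vehicle M-MDSCs, 75.2 to 81.3 under MS-275 and 119 to 137 under CXD101. In PMN-MDSCs they summed to 181 to 191 FPKM under vehicle, 128 to 143 under MS-275 and 111 to 123 under CXD101, and no marker of the list was at 0 in both libraries of a group. Members of this list moved in different directions under MS-275. In PMN-MDSCs Mrc1 went from 50.6 and 48.0 FPKM to 3.32 and 2.96, and C1qb from 23.7 and 18.8 to 0.61 and 0.29. C1qa and C1qc also fell there, whereas Apoe rose from 13.8 and 16.4 to 45.2 and 51.1 FPKM and Adgre1 overlapped vehicle. In M-MDSCs Mrc1 and the C1q genes fell under MS-275, and Adgre1 and Apoe rose. Dendritic cell markers (5 of 5 found) summed to 164 to 214 FPKM in vehicle PMN-MDSCs and 44.3 to 51.0 in treated ones. The part of either cell type in the fall of Mmp12 was not tested.

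Mmp13 (chromosome 9, 7272514 to 7283331, plus strand) encodes collagenase-3, which cleaves fibrillar collagen. It was at 0.27 and 0.68 FPKM in vehicle M-MDSCs, 1.64 and 1.63 under MS-275 and 0.55 and 0.58 under CXD101. In PMN-MDSC libraries the values were 1.77 and 1.17 FPKM under vehicle, 6.13 and 6.97 under MS-275 and 2.36 and 1.76 under CXD101. The MS-275 libraries were the highest of each cell type, and the CXD101 libraries overlapped those of vehicle in both.

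MS-275 raised Mmp13 by 0.85 in M-MDSCs (SE 0.18, adjusted p = 0.00482) and by 1.62 in PMN-MDSCs (SE 0.17, adjusted p = 0.000202). Mean FPKM was 3.43-fold higher than under vehicle in M-MDSCs, from a level below 1 FPKM, and 4.45-fold higher in PMN-MDSCs. The log2 fold change under CXD101 was 0.10 in M-MDSCs (95% CI -0.30 to 0.50, adjusted p = 0.717) and 0.31 in PMN-MDSCs (95% CI -0.09 to 0.72, adjusted p = 0.18). The response to MS-275 was larger in PMN-MDSCs by 0.77 (adjusted p = 0.0367), a call that was lost when any of 6 libraries was left out: replicate 2 of vehicle M-MDSCs (0.57), replicate 1 (0.77) or 2 (0.77) of MS-275-treated M-MDSCs, replicate 2 of vehicle PMN-MDSCs (0.59), and replicate 1 (0.85) or 2 (0.69) of MS-275-treated PMN-MDSCs. Under vehicle PMN-MDSCs exceeded M-MDSCs by 0.75 (adjusted p = 0.00333), below the fold limit without replicate 1 of vehicle M-MDSCs (0.54) or of vehicle PMN-MDSCs (0.57). Over all alternatives that difference in response was called in 11 of 23. Rescaling without S100a8 and S100a9 also ended the call of the difference in response (0.67, adjusted p = 0.0561), and quantile normalization that of the rise in M-MDSCs (0.46, adjusted p = 0.0549). With a pseudocount of 0.1 the difference in response was 0.42 (adjusted p = 0.555), so its size depended on the value added before the logarithm.

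Mmp14 (chromosome 14, 54431612 to 54445364, plus strand) encodes the membrane-anchored MT1-MMP. In M-MDSCs it was at 1.27 and 1.33 FPKM under vehicle, 0.50 and 0.36 under MS-275 and 0.61 and 0.17 under CXD101. The PMN-MDSC libraries were at 6.76 and 3.76 FPKM under vehicle, 3.06 and 1.86 under MS-275 and 3.605 and 2.79 under CXD101. Vehicle libraries were above treated ones in each cell type, and all PMN-MDSC libraries were above all M-MDSC libraries.

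In M-MDSCs Mmp14 fell by 0.68 on the log2 scale under MS-275 (adjusted p = 0.0188) and by 0.74 under CXD101 (adjusted p = 0.025). These calls were lost without replicate 2 of the MS-275 group (-0.61, adjusted p = 0.0911) and without replicate 2 of the CXD101 group (-0.52, adjusted p = 0.109), respectively. In PMN-MDSCs it fell by 0.84 under MS-275 (SE 0.26, adjusted p = 0.0283), a call lost without replicate 1 of the vehicle group (-0.48, adjusted p = 0.157) or replicate 2 of the MS-275 group (-0.58, adjusted p = 0.145). The 3 calls were also lost with a pseudocount of 0.1 (MS-275 in M-MDSCs, adjusted p = 0.0542), with all 12 libraries in 1 model (CXD101 in M-MDSCs, adjusted p = 0.0577) and with no filter on low values (MS-275 in PMN-MDSCs, adjusted p = 0.0779), respectively. The log2 fold change under CXD101 in PMN-MDSCs was -0.54 (95% CI -1.15 to 0.06, adjusted p = 0.126), and it was called without replicate 2 of the vehicle group (-0.89, adjusted p = 0.0259). Under vehicle PMN-MDSCs were 4.05-fold above M-MDSCs in mean FPKM (log2 fold change 1.40, adjusted p = 0.000559).

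Mmp19 (chromosome 10, 128790910 to 128800824, plus strand), a metalloproteinase that cleaves basement membrane components, had the smallest ratio of its highest to its lowest library among the 9 genes tested. It was at 13.1 and 11.3 FPKM in vehicle M-MDSCs, 17.9 and 16.2 under MS-275 and 16.1 and 14.6 under CXD101, and between 11.1 and 14.2 FPKM in the 6 PMN-MDSC libraries. Treated M-MDSC libraries were thus above all others, whereas the PMN-MDSC groups and vehicle M-MDSCs overlapped. The log2 fold change in M-MDSCs was 0.45 with MS-275 (adjusted p = 0.0064) and 0.31 with CXD101 (adjusted p = 0.0543), both below the fold limit. In PMN-MDSCs it was 0.01 under MS-275 (95% CI -0.24 to 0.27) and -0.13 under CXD101 (95% CI -0.39 to 0.12). Exons of Mmp19 overlap those of Tmem198b on the other strand, which was listed at 7.91 to 19.5 FPKM. The libraries were stranded, but whether reads were counted by strand was not given in the sources used here, so reads of the pair cannot be told apart. Exons of Mmp12 and Fn1 overlap Mmp1b and Apol7d, which were listed at 0.125 and 0.110 FPKM at most, and those of Adam8 and Thbs1 overlap Gm16201 and Gm29233, which were not analysed here.

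Adam8 (chromosome 7, 139978932 to 139992562, minus strand) encodes a membrane metalloprotease that sheds adhesion molecules of leukocytes, among other surface proteins. Among PMN-MDSCs the level was 175 and 175 FPKM under vehicle, 278 and 295 under MS-275 and 279 and 260 under CXD101. In M-MDSCs it was at 50.8 and 51.5 FPKM under vehicle, 44.9 and 46.4 under MS-275 and 38.3 and 31.3 under CXD101. The groups moved apart in opposite directions: treated PMN-MDSC libraries were all above vehicle, and treated M-MDSC libraries were all below it.

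Adam8 rose in PMN-MDSCs by 0.71 under MS-275 (SE 0.06, adjusted p = 8.52e-05) and by 0.62 under CXD101 (SE 0.06, adjusted p = 0.000254), the latter below the fold limit without CXD101 replicate 1 (0.57, adjusted p = 0.00419). In M-MDSCs its log2 fold change with MS-275 was -0.16 (95% CI -0.37 to 0.05, adjusted p = 0.181) and that with CXD101 was -0.55 (adjusted p = 0.00431), below the fold limit but called without CXD101 replicate 1 (-0.69). The responses of both cell types differed by 0.87 under MS-275 (95% CI 0.61 to 1.13, adjusted p = 0.000436) and by 1.16 under CXD101 (95% CI 0.91 to 1.42, adjusted p = 0.000146). Under vehicle PMN-MDSCs were 3.42-fold above M-MDSCs in mean FPKM (log2 fold change 1.76, SE 0.08, adjusted p = 3.6e-08).

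**Figure D2:**
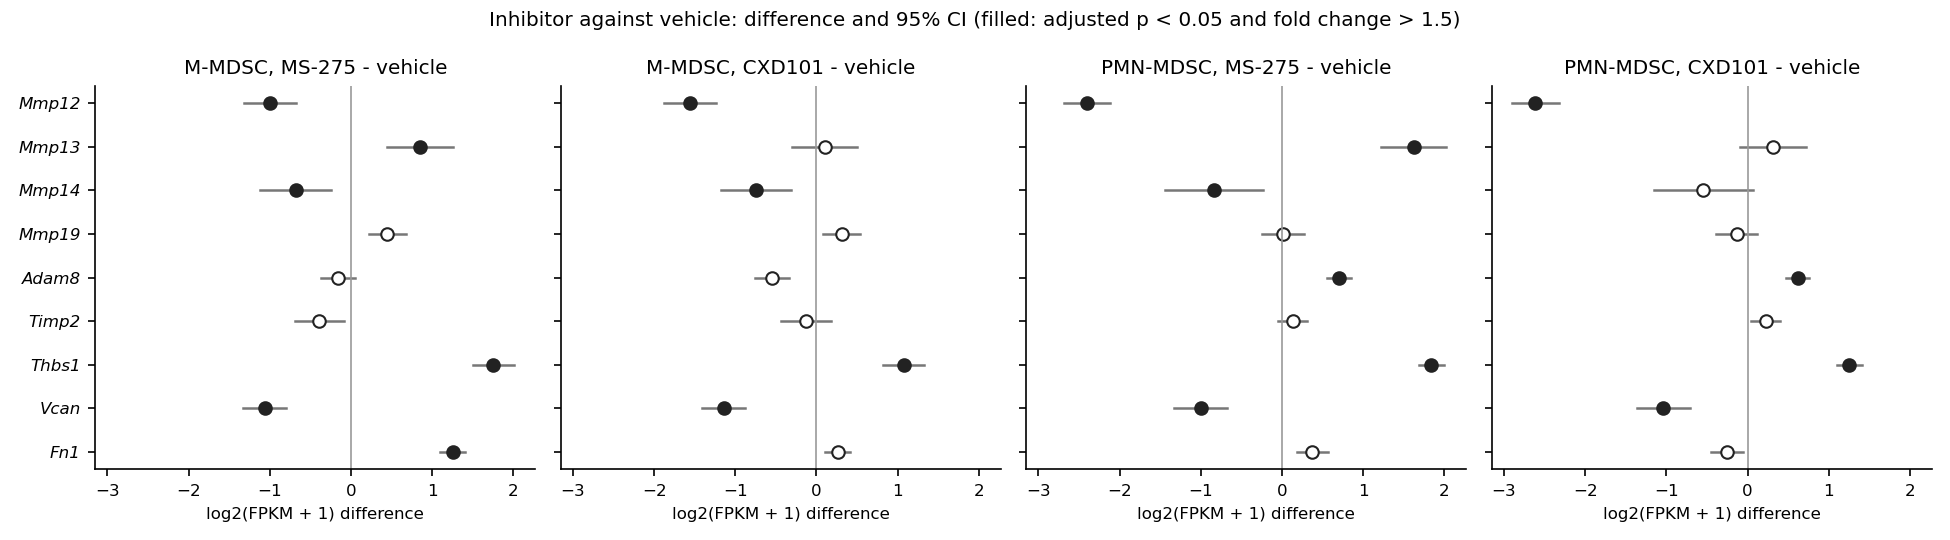
Difference in log2(FPKM + 1) between each inhibitor and vehicle (x axis) for the 9 genes tested, with 95% confidence intervals from limma. Filled points had an adjusted p under 0.05 and a fold change above 1.5. Thbs1 lies to the right and Mmp12 and Vcan to the left of 0 in all 4 panels, with Mmp12 farthest left in both PMN-MDSC panels (-2.40 and -2.62).

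Of Timp1 and Timp2, only Timp2 was high enough to test. Timp2 (chromosome 11, 118301069 to 118355740, minus strand) encodes an inhibitor that also takes part in the activation of pro-MMP2 by MT1-MMP. It was at 37.4 and 41.9 FPKM in vehicle PMN-MDSCs, 43.5 and 43.7 under MS-275 and 47.0 and 45.9 under CXD101. In M-MDSCs it was at 5.21 and 6.30 FPKM under vehicle, 4.18 and 4.11 under MS-275 and 4.58 and 5.81 under CXD101. All PMN-MDSC libraries were above all M-MDSC libraries, and under vehicle the mean FPKM was 6.89-fold higher (log2 fold change 2.59, SE 0.11, adjusted p = 1.64e-08), the largest difference between the cell types among the 9 genes. The log2 fold changes against vehicle ranged from -0.39 (MS-275 in M-MDSCs, adjusted p = 0.0425) to 0.23 (CXD101 in PMN-MDSCs, adjusted p = 0.0453), all below the fold limit. The response to MS-275 differed between the cell types by 0.52 (adjusted p = 0.0265), also below that limit. This difference was above the limit without replicate 1 of vehicle M-MDSCs (0.64) or replicate 2 of vehicle PMN-MDSCs (0.60). With all libraries it was called with a pseudocount of 0.1 (0.59, adjusted p = 0.0267) and after quantile normalization (0.64, adjusted p = 0.0102).

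Timp1 (chromosome X, 20870166 to 20874735, plus strand), the secreted inhibitor best known from wounds and inflammation, was at 0.42 and 0.72 FPKM in vehicle M-MDSCs, 0.14 and 0 under MS-275 and 0.16 and 0 under CXD101. PMN-MDSC libraries had 0.37 and 0.67 FPKM under vehicle, 0.57 and 0.90 under MS-275 and 0.19 and 0.21 under CXD101. A single read in the longest Timp1 transcript would equal about 0.106 to 0.160 FPKM in these libraries, so even the highest value (0.90) rests on a small number of reads. The M-MDSC vehicle libraries were above the treated ones, but no test was made at this level, and the 2 libraries at 0 do not show absence of the transcript.

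Thbs1 (chromosome 2, 118111876 to 118127133, plus strand) encodes thrombospondin-1, a glycoprotein that binds CD36 and CD47 and can activate latent TGF-beta. It had the highest level of the 10 genes in every library. In M-MDSCs it was at 578 and 448 FPKM under vehicle, 1732 and 1709 under MS-275 and 1128 and 1018 under CXD101. In PMN-MDSCs it was at 1110.0 and 1089 FPKM under vehicle, 3863 and 4026 under MS-275 and 2742 and 2516 under CXD101. The order vehicle, CXD101, MS-275 held in both cell types without overlap, and vehicle PMN-MDSCs overlapped CXD101-treated M-MDSCs.

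Mean Thbs1 was 3.35-fold higher under MS-275 in M-MDSCs (log2 fold change 1.76, SE 0.11, adjusted p = 1.42e-05) and 3.59-fold higher in PMN-MDSCs (1.84, SE 0.07, adjusted p = 2.32e-06). Under CXD101 it was 2.09-fold higher in M-MDSCs (1.07, SE 0.11, adjusted p = 0.000469) and 2.39-fold higher in PMN-MDSCs (1.26, SE 0.07, adjusted p = 1.37e-05). The responses of the cell types differed by 0.09 under MS-275 (95% CI -0.23 to 0.41) and by 0.18 under CXD101 (95% CI -0.14 to 0.50), neither past the threshold (adjusted p = 0.691 and 0.394). Under vehicle PMN-MDSCs were 2.14-fold above M-MDSCs (1.11, SE 0.10, adjusted p = 4.62e-06). Platelets also carry thrombospondin-1. The platelet and megakaryocyte markers (5 of 5 found, none at 0 in both libraries of a group) summed to 9.59 to 9.60 FPKM in vehicle M-MDSCs, 45.9 to 49.1 under MS-275 and 24.7 to 26.1 under CXD101. In PMN-MDSCs they summed to 20.1 to 36.9 FPKM under vehicle, 51.9 to 61.9 under MS-275 and 40.2 to 45.7 under CXD101. Most of the rise in PMN-MDSCs was Ppbp, which went from 3.71 and 0.26 FPKM to 23.7 and 31.1 under MS-275 and 12.1 and 13.3 under CXD101. Pf4, the most abundant of these markers in vehicle PMN-MDSCs, overlapped vehicle there under both inhibitors. Itga2b overlapped vehicle under MS-275 and was slightly above it under CXD101. Gp9 and Gp1bb rose under both, to 2.95 FPKM at most. In M-MDSCs all 5 markers were above vehicle in the treated libraries, and Pf4 rose most. Pf4 went there from 7.89 and 9.26 FPKM to 32.4 and 29.9 under MS-275 and 19.4 and 19.4 under CXD101. Ppbp went there from 0.87 and 0 FPKM to 13.6 and 13.4 under MS-275 and 4.98 and 4.33 under CXD101. The part of platelets in the rise of Thbs1 was not tested.

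Vcan (chromosome 13, 89655312 to 89742509, minus strand) encodes versican, a large chondroitin sulfate proteoglycan. It was at 64.0 and 56.7 FPKM in vehicle M-MDSCs, 26.8 and 29.9 under MS-275 and 30.1 and 23.6 under CXD101. In PMN-MDSCs it was at 18.7 and 16.2 FPKM under vehicle, 7.17 and 9.34 under MS-275 and 8.48 and 7.49 under CXD101. All M-MDSC libraries were above all PMN-MDSC libraries, vehicle was above the treated libraries in each cell type, and the groups of the 2 inhibitors overlapped.

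Mean FPKM was 2.12-fold to 2.24-fold lower in the 4 comparisons. In M-MDSCs Vcan fell by 1.06 on the log2 scale with MS-275 (SE 0.12, adjusted p = 0.000207) and by 1.14 with CXD101 (SE 0.12, adjusted p = 0.000466). In PMN-MDSCs it fell by 1.003 (SE 0.14, adjusted p = 0.000721) and by 1.04 (SE 0.14, adjusted p = 0.00088). The difference between the cell types was 0.06 for MS-275 (95% CI -0.38 to 0.50) and 0.11 for CXD101 (95% CI -0.34 to 0.55). Under vehicle PMN-MDSCs were 3.46-fold below M-MDSCs in mean FPKM (log2 fold change -1.73, SE 0.14, adjusted p = 1.84e-06). The monocyte markers summed to 1592 to 1655 FPKM in vehicle M-MDSCs, 2624 to 2673 under MS-275 and 2281 to 2360 under CXD101, higher under the inhibitors than under vehicle. Ly6c2, the gene of the sorting antigen Ly-6C, made up most of that sum. Csf1r, another monocyte marker, went from 123 and 123 FPKM under vehicle to 97.1 and 94.9 under MS-275 and 103 and 104 under CXD101. Fcgr1 went from 25.1 and 24.6 FPKM to 6.72 and 6.66 under MS-275 and 9.89 and 10.6 under CXD101. Ccr2 went from 147.1 and 136.9 FPKM to 125 and 124 under MS-275 and 136.8 and 124.6 under CXD101, and Cx3cr1 stayed below 1 FPKM. The part of the cell mix in the fall of Vcan was not tested.

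Fn1 (chromosome 1, 71585520 to 71653200, minus strand) encodes fibronectin, which links integrins to collagen and fibrin. It was at 97.4 and 98.3 FPKM in vehicle M-MDSCs, 249.8 and 220.4 under MS-275 and 115 and 119 under CXD101. In PMN-MDSCs it was at 48.1 and 49.0 FPKM under vehicle, 58.9 and 68.1 under MS-275 and 41.3 and 39.9 under CXD101. No groups overlapped: MS-275-treated M-MDSCs were the highest, followed by the CXD101 and vehicle M-MDSC groups, and CXD101-treated PMN-MDSCs were the lowest.

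In M-MDSCs, Fn1 rose 2.40-fold in mean FPKM under MS-275 (log2 fold change 1.25, SE 0.07, adjusted p = 7.06e-06), and its log2 fold change under CXD101 was 0.26 (SE 0.07, adjusted p = 0.028), below the fold limit. In PMN-MDSCs the change with MS-275 was 0.38 (adjusted p = 0.00657) and that with CXD101 was -0.25 (adjusted p = 0.0392), both below the limit and of opposite sign. The response to MS-275 was smaller in PMN-MDSCs by 0.88 (log2 difference -0.88, 95% CI -1.12 to -0.63, adjusted p = 0.000291). The response to CXD101 differed by -0.51 (95% CI -0.76 to -0.27, adjusted p = 0.00739), below the fold limit. Under vehicle PMN-MDSCs were 2.01-fold below M-MDSCs (log2 fold change -0.996, SE 0.08, adjusted p = 1.33e-06). Fibronectin is also a product of hepatocytes and fibroblasts. The fibroblast and stellate cell markers (7 of 7 found) summed to 3.06 to 4.63 FPKM in vehicle M-MDSCs, 6.23 to 7.10 with MS-275 and 4.20 to 4.66 with CXD101, mostly Acta2, and in PMN-MDSCs to 19.2 to 24.0, 38.8 to 40.6 and 30.8 to 33.1. In that list Col1a2, Dcn and Lum were at 0 in all 12 libraries and Col3a1 at 0.08 FPKM at most. Pdgfrb was at 0.13 and 0.095 FPKM in vehicle M-MDSCs and 1.01 and 1.02 with MS-275, and Col1a1 was at 2.08 and 2.08 FPKM in vehicle PMN-MDSCs and 4.54 and 3.71 with CXD101. Of the hepatocyte and hepatoma markers (6 of 6 found), Ttr and Fgb were at 0 in all 12 libraries, Alb was at 0.05 FPKM at most, and Trf made up most of the sum, which was lower with MS-275 (40.6 to 44.1 FPKM) than with vehicle (60.6 to 64.3) in M-MDSCs. In PMN-MDSCs that sum was 157 to 163 FPKM with vehicle, 269 to 272 with MS-275 and 232 to 233 with CXD101. The part of either cell type in the changes of Fn1 was not tested.

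The inhibitors were compared with each other at the same dose and schedule in 2 comparisons, 1 per cell type. In M-MDSCs, 3 of the 9 genes were higher under MS-275 than under CXD101 and none was lower (2 of the 7 at 1 FPKM or more in every M-MDSC group), beside 4.40% of all genes called (3.22% higher). Fn1 was 0.99 higher on the log2 scale (SE 0.07, adjusted p = 0.000378), Mmp13 0.75 higher (SE 0.18, adjusted p = 0.0281) and Thbs1 0.68 higher (SE 0.11, adjusted p = 0.00731). The Mmp13 call was lost without replicate 1 (0.74, adjusted p = 0.105) or replicate 2 (0.76, adjusted p = 0.0853) of the CXD101 group, and with a pseudocount of 0.1 (adjusted p = 0.0679). Adam8 was 0.39 higher under MS-275 (adjusted p = 0.0295), below the fold limit. For Vcan the difference was 0.08 (95% CI -0.19 to 0.35), for Mmp14 0.06 (95% CI -0.38 to 0.50), for Mmp19 0.14 (95% CI -0.09 to 0.36) and for Timp2 -0.26 (95% CI -0.56 to 0.05).

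In PMN-MDSCs the same 3 genes were higher under MS-275, where 0.805% of all genes were called (0.465% higher). Mmp13 was 1.31 higher (SE 0.17), Fn1 0.63 higher (SE 0.08) and Thbs1 0.59 higher (SE 0.07), with adjusted p of 0.0241, 0.0241 and 0.019. Both MS-275 libraries were above both CXD101 libraries for each of these genes. None of the 3 calls remained when any of the 4 libraries compared was left out, with adjusted p between 0.0598 and 0.170, or without the filter on low values, with adjusted p between 0.0883 and 0.0944. Without MS-275 replicate 1, MS-275 replicate 2, CXD101 replicate 1 and CXD101 replicate 2 in turn, the log2 difference of Mmp13 was 1.39, 1.23, 1.45 and 1.17, that of Fn1 was 0.73, 0.53, 0.65 and 0.61, and that of Thbs1 was 0.62, 0.56, 0.65 and 0.52. The Thbs1 difference was below the fold limit after rescaling without S100a8 and S100a9 (0.56, adjusted p = 0.0166), and Thbs1 and Fn1 were not called without the intensity trend of the model (adjusted p = 0.0829 and 0.0843) nor Thbs1 after quantile normalization (0.27, adjusted p = 0.0574). The other 6 genes were not called, with differences of 0.21 for Mmp12 (95% CI -0.08 to 0.50), 0.09 for Adam8 (95% CI -0.06 to 0.24), 0.04 for Vcan (95% CI -0.29 to 0.36), 0.14 for Mmp19 (95% CI -0.11 to 0.40), -0.09 for Timp2 (95% CI -0.27 to 0.09) and -0.29 for Mmp14 (95% CI -0.90 to 0.31).

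**Figure D3:**
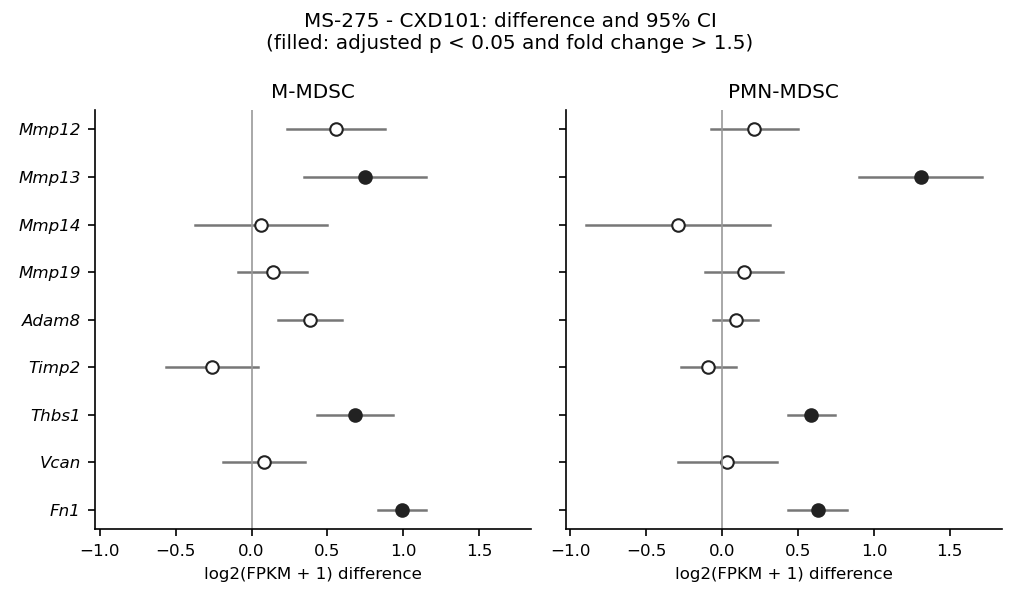
Difference in log2(FPKM + 1) between MS-275 and CXD101 (x axis) with 95% confidence intervals for the 9 genes, in M-MDSCs and PMN-MDSCs; filled points had an adjusted p under 0.05 and a fold change above 1.5. Mmp13, Thbs1 and Fn1 are filled and to the right of 0 in both panels.

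Between the cell types under vehicle, 8 of the 9 genes differed, beside 34.0% of all 11662 genes. Of these, 6 were higher in PMN-MDSCs (17.2% of all genes) and 2, Vcan and Fn1, were lower (16.8%). In order of the log2 difference, the higher genes were Timp2 (2.59), Adam8 (1.76), Mmp14 (1.40), Thbs1 (1.11), Mmp13 (0.75) and Mmp12 (0.64). Mmp19 differed by 0.10 (95% CI -0.13 to 0.34, adjusted p = 0.418). The response to MS-275 differed between the cell types for 4 genes, beside 18.1% of all genes. The log2 fold change was higher in PMN-MDSCs for Adam8 and Mmp13 (8.65% of all genes). It was lower there for Fn1, which rose less, and for Mmp12, which fell more (9.48%). The response to CXD101 differed for 2 genes, beside 13.9% of all genes. The log2 fold change was higher in PMN-MDSCs for Adam8 (7.31%) and lower there for Mmp12, which again fell more (6.59%).

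**Figure D4:**
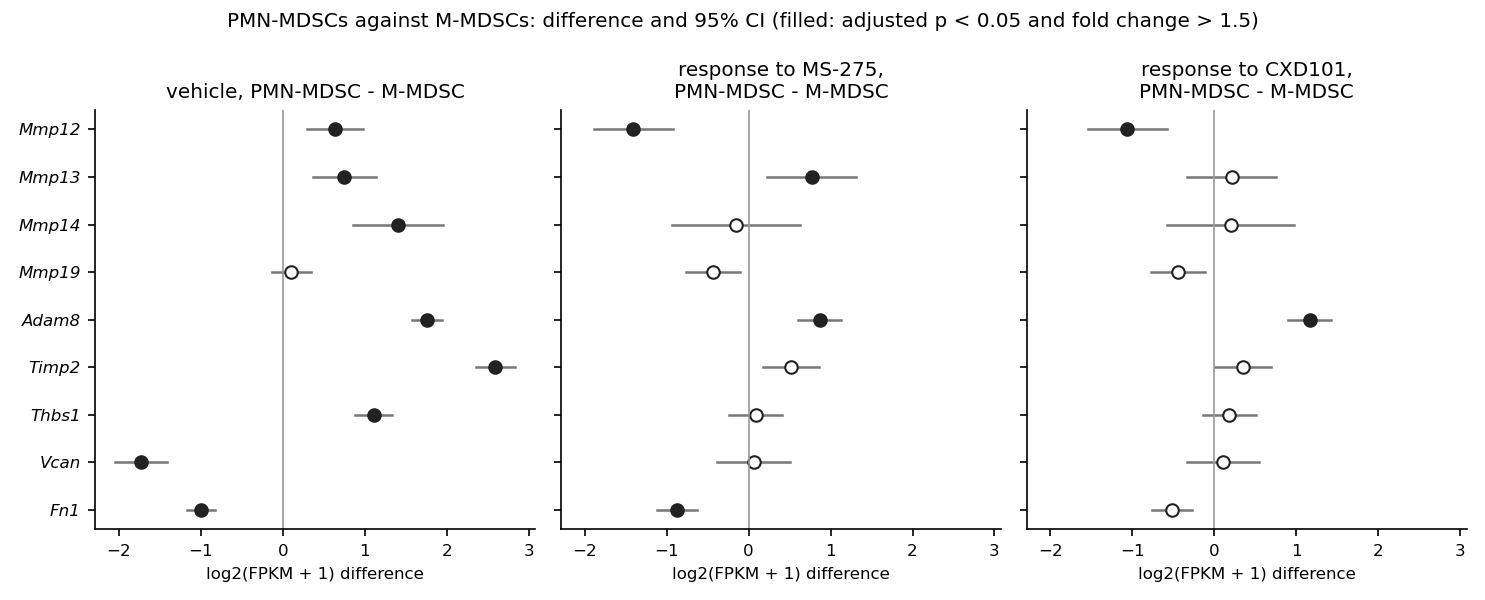
Difference in log2(FPKM + 1) between PMN-MDSCs and M-MDSCs under vehicle (left), and between their responses to MS-275 (middle) and CXD101 (right), with 95% confidence intervals for the 9 genes; filled points had an adjusted p under 0.05 and a fold change above 1.5. Timp2 is farthest to the right under vehicle (2.59), and Mmp12 is to the left and Adam8 to the right of 0 in both response panels.

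The genes whose pattern over the 12 libraries was most like that of each gene were taken among genes with a mean of at least 5 FPKM, by Pearson's r of log2(FPKM + 1). The libraries form 2 clusters by cell type, so r within the 6 libraries of each cell type is given beside it, and all are descriptions. For Thbs1 these genes were Limk2, Cxcr4 and Zcchc11 (r of 0.987 to 0.992, with 0.980 to 0.984 in M-MDSCs and 0.982 to 0.998 in PMN-MDSCs). For Vcan they were Fabp5, Ifi30 and S100a10 (0.987 to 0.990, with 0.948 to 0.979 and 0.978 to 0.989). For Mmp12 they were Atp6v1b2, Epb4.1l2 and Pfkl (0.943 to 0.947, with 0.842 to 0.903 and 0.974 to 0.990). For Adam8 they were Lilr4b, Cap1 and Syk (0.994 to 0.996), and for Timp2 Sh2d3c, Trib1 and Gsr (0.997 to 0.998), where r within a cell type fell to 0.785 and 0.698 at the lowest. Both of these genes differ widely between the cell types. For Fn1 they were Clstn1, H2afy and Ero1lb, for Mmp13 Nabp1, Por and Rilpl2, for Mmp14 Arf3, Arhgef11 and Cd151, and for Mmp19 F7, H2-DMb1 and Hpse, with r of 0.895 to 0.969. Within a cell type, r fell at the lowest to 0.726 for Fn1, 0.785 for Mmp13, 0.794 for Mmp14 and 0.773 for Mmp19.

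Beyond the 10 genes, 127 further genes in 8 lists of matrix biology were all found, and 57 to 63 of them were tested per comparison. In M-MDSCs, 17 of 59 rose and 9 fell under MS-275, beside 10.1% and 7.32% of all genes, and 11 rose and 8 fell under CXD101, beside 5.14% and 3.0%. In PMN-MDSCs, 18 of 57 rose and 7 fell under MS-275, beside 14.6% and 14.2%, and 19 rose and 6 fell under CXD101, beside 11.9% and 9.54%. Most of the 127 genes were too low to be tested, and those that passed could do so through the group in which they were high. The counts of single lists below are to be read beside the same shares of all genes. In both directions together these were 17.5% under MS-275 and 8.13% under CXD101 in M-MDSCs, and 28.7% and 21.4% in PMN-MDSCs. No list was tested against these shares.

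Of 19 other metalloproteinases, 5 were tested in M-MDSCs and 6 in PMN-MDSCs. In M-MDSCs 2 rose and 1 fell with MS-275, and 3 rose and 1 fell with CXD101. In PMN-MDSCs 4 rose and 1 fell with MS-275, and 3 rose and 0 fell with CXD101. Mmp8, the neutrophil collagenase, rose from a mean of 112 FPKM to 784 with MS-275 and 231 with CXD101 in M-MDSCs (log2 fold change 2.80 and 1.02). In PMN-MDSCs it rose from 671 FPKM to 2574 and 1652 (1.94 and 1.30), and MS-275 exceeded CXD101 in both cell types (1.77 and 0.64). Mmp9, gelatinase B, fell under both inhibitors in M-MDSCs, from 8.85 to 3.63 and 4.63 FPKM (-1.11 and -0.79), and under MS-275 in PMN-MDSCs, from 1061 to 675 FPKM (-0.65). Mmp25, a membrane-anchored enzyme of neutrophils, rose in PMN-MDSCs from 37.9 to 84.0 and 98.4 FPKM (1.14 and 1.37). The list's median log2 fold change was 0.43 under MS-275 and 0.74 under CXD101 in M-MDSCs, and 1.22 and 0.68 in PMN-MDSCs, beside medians over all genes of -0.06, -0.02, -0.03 and -0.03. Under vehicle 4 of 6 were higher in PMN-MDSCs, beside 17.2% of all genes, led by Mmp9 (log2 difference 6.77) and Mmp25 (4.31).

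Of 10 further protease inhibitors, 5 were tested in each cell type. In M-MDSCs 4 rose under MS-275 and 2 under CXD101, in PMN-MDSCs 4 rose under each, and none was called lower. Cst3 was lower in all 4 comparisons (adjusted p of 0.00144 to 0.0287) but below the fold limit. Its log2 fold change was -0.31 with MS-275 and -0.21 with CXD101 in M-MDSCs, and -0.46 and -0.37 in PMN-MDSCs. Serpinb2, the inhibitor of plasminogen activators PAI-2, rose from 2.29 FPKM to 20.96 with MS-275 and 5.33 with CXD101 in M-MDSCs (log2 fold change 2.71 and 0.93). In PMN-MDSCs it rose from 7.39 to 108 and 37.8 FPKM (3.70 and 2.21), and MS-275 exceeded CXD101 in both cell types (1.78 and 1.49). Spint1, a membrane-bound inhibitor of serine proteases, rose under MS-275 from 77.4 to 135 FPKM in M-MDSCs (0.80) and under both inhibitors in PMN-MDSCs, from 64.1 to 152 and 131 FPKM (1.23 and 1.02). The list's median was 0.80 and 0.34 in M-MDSCs and 1.23 and 1.02 in PMN-MDSCs.

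**Figure D5:**
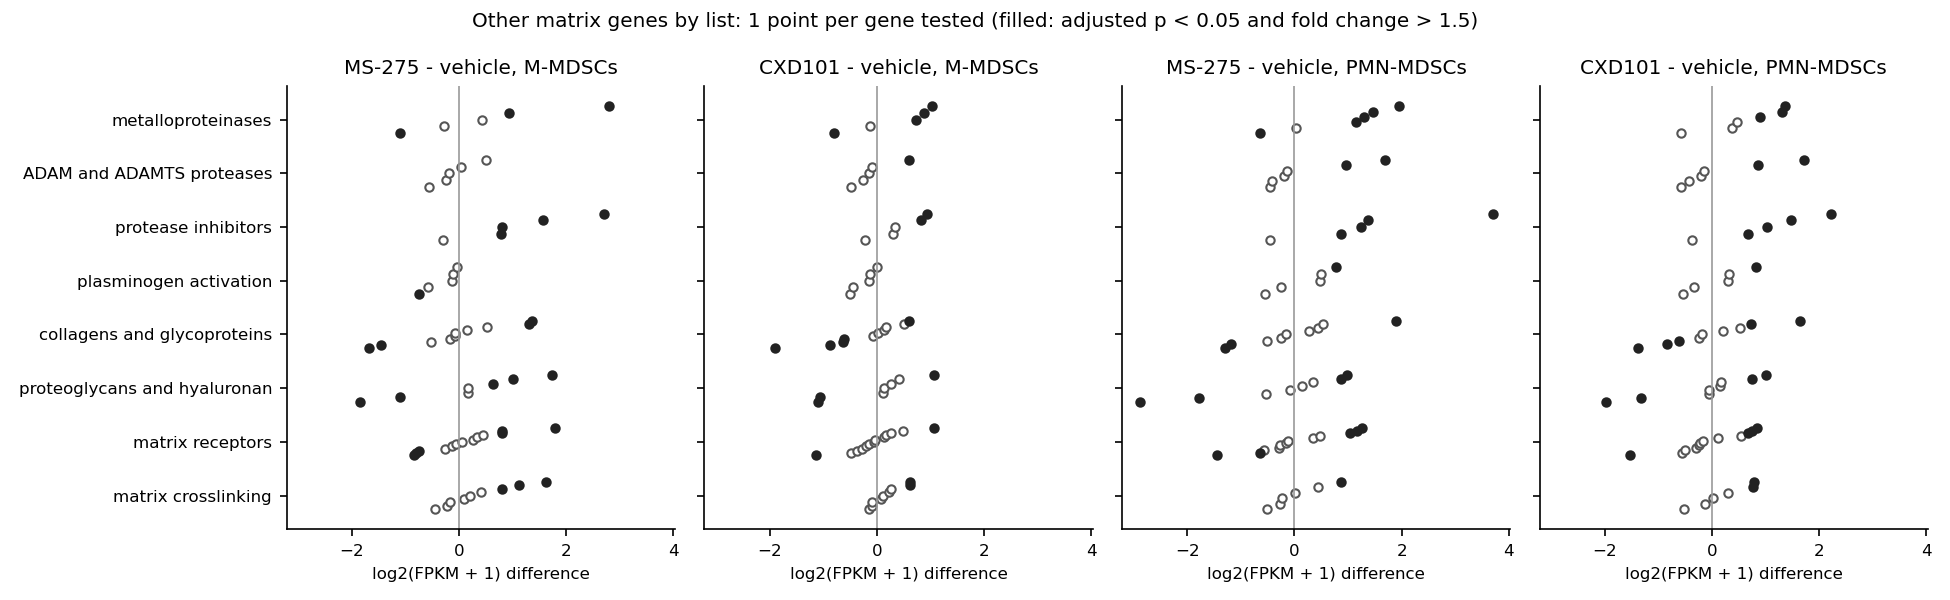
Difference in log2(FPKM + 1) between inhibitor and vehicle (x axis), 1 point per tested gene of the 8 matrix lists (rows), vertical offsets only separating the points; filled points had an adjusted p under 0.05 and a fold change above 1.5. The protease inhibitor row holds 2 to 4 filled points per panel, all right of 0, and the farthest is Serpinb2 under MS-275 in PMN-MDSCs (3.70).

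Of 29 collagens and glycoproteins, 10 were tested in M-MDSCs and 9 in PMN-MDSCs. Spp1, which encodes osteopontin, fell from 293 FPKM to 90.4 with MS-275 and 77.5 with CXD101 in M-MDSCs (log2 fold change -1.69 and -1.91), and from 209 to 84.4 and 79.3 FPKM in PMN-MDSCs (-1.30 and -1.39). Tgfbi, a TGF-beta-induced adhesion protein, fell from 202 to 73.2 and 131 FPKM in M-MDSCs (-1.45 and -0.62) and from 232 to 102 and 128 FPKM in PMN-MDSCs (-1.18 and -0.85). Both thus fell in all 4 comparisons. The list counts were 2 higher and 2 lower under MS-275 and 1 and 4 under CXD101 in M-MDSCs, and 1 and 2 under MS-275 and 2 and 3 under CXD101 in PMN-MDSCs, with medians between -0.19 and -0.02.

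Of 18 genes of proteoglycans and hyaluronan, 7 were tested in M-MDSCs and 8 in PMN-MDSCs. In M-MDSCs 3 rose and 2 fell with MS-275, and 1 rose and 2 fell with CXD101, and in PMN-MDSCs 2 rose and 2 fell with each, with medians between 0.03 and 0.17. Srgn, which encodes serglycin, the proteoglycan of secretory granules, rose in M-MDSCs from 186 FPKM to 618 with MS-275 and 389 with CXD101 (1.73 and 1.06). Sdc3, a syndecan, fell in M-MDSCs from 17.8 to 4.22 and 8.07 FPKM (-1.85 and -1.06) and in PMN-MDSCs from 19.0 to 1.69 and 4.06 FPKM (-2.89 and -1.98). Of 15 matrix receptors, 13 and 12 were tested. Itga6, the integrin alpha-6 subunit of laminin receptors, rose in M-MDSCs from 3.72 to 15.4 and 8.84 FPKM (1.80 and 1.06) and in PMN-MDSCs from 3.05 to 8.08 and 5.76 FPKM (1.16 and 0.74). Cd36, a receptor of thrombospondin-1, fell in PMN-MDSCs from 5.85 to 1.51 and 1.36 FPKM (-1.45 and -1.54) and was also called lower in M-MDSCs (-0.81 and -1.14). The receptor list counted 3 higher and 3 lower under MS-275 and 1 and 1 under CXD101 in M-MDSCs, and 3 and 2 and then 3 and 1 in PMN-MDSCs, with medians between -0.19 and 0.05.

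The 3 remaining lists had 0 to 3 genes higher and at most 1 lower per comparison with vehicle. Of 16 ADAM and ADAMTS proteases, 5 and 6 were tested, and Adam19 rose in PMN-MDSCs from 7.23 FPKM to 25.1 with MS-275 and 25.6 with CXD101 (1.69 and 1.71). Adamts10 rose in PMN-MDSCs from 13.2 to 26.6 and 24.6 FPKM (0.96 and 0.86) and in M-MDSCs under CXD101 from 6.44 to 10.3 FPKM (0.60). Of 7 genes of plasminogen activation, 5 were tested in each cell type. Plau, the urokinase gene, rose in PMN-MDSCs from 24.0 to 41.5 and 43.0 FPKM (0.77 and 0.82), and Anxa2, a plasminogen-binding annexin, fell in M-MDSCs under MS-275 from 595 to 353 FPKM (-0.75). Of 13 crosslinking genes, 9 and 6 were tested, and Tgm2, tissue transglutaminase, rose under CXD101 from 19.9 to 30.9 FPKM in M-MDSCs (0.62) and from 90.5 to 154 FPKM in PMN-MDSCs (0.76).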

How the data were processed

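RNA from MDSCs sorted out of orthotopic Hepa 1-6 tumors was sequenced as 101-base single-end reads from stranded poly(A) libraries. The deposited values are FPKM per gene symbol, 1 table per library, made by the authors; their processing notes name TopHat2 2.1.1, Bowtie2 2.2.8, SAMtools 0.1.18, Cuffdiff 2.2.1 and the mouse build mm10. The annotation, the strand setting of the counting and the filters were not given in the sources used here. FPKM divides by the library total, so a few very abundant transcripts can lower the values of other genes.

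Groups were taken from the sample labels. FPKM were transformed to log2(FPKM + 1), and genes at 1 FPKM or more in at least 2 of the libraries entered a group-means model in limma 3.58.1 (R 4.3.3) with an intensity trend. Comparisons within a cell type used its 6 libraries; those between cell types used all 12. Adjusted p are Benjamini-Hochberg values over all genes tested, and a gene was called at an adjusted p under 0.05 and a fold change above 1.5. Tables and figures were made with Python 3.11.15, numpy 2.4.6, pandas 2.3.3 and matplotlib 3.10.9, and the fits were tested on simulated data. Depth was estimated from the steps of low FPKM values. Gene positions are those of a GENCODE annotation of GRCm38.

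The 10 genes, the 8 matrix lists and the 9 marker lists were chosen with earlier results of these data known. Genes of the matrix lists were named by rule, as up to 3 called genes per list and comparison with the largest absolute log2 fold change and a mean of at least 5 FPKM in the higher group, and a selection of these is printed. Alternatives were another pseudocount (0.1), no filter or 5 FPKM, median-of-ratios, quantile or S100a8- and S100a9-free scaling, no intensity trend, other fold limits, other sets of libraries in the model, a replicate block, and leaving out each library. Ly6g was not analysed here.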

Additional observations from a re-analysis of the deposited data

Results flagged for a closer look

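The values in this section are differences between PMN-MDSCs and M-MDSCs in the log2 fold change against vehicle, each tested as an interaction in limma with all 12 libraries and passing an adjusted p of 0.05. For MS-275 the difference was 0.87 for Adam8, 0.77 for Mmp13 and 0.52 for Timp2, each higher in PMN-MDSCs. It was -1.41 for Mmp12, -0.88 for Fn1 and -0.44 for Mmp19, each lower in PMN-MDSCs. For CXD101 the difference was 1.16 for Adam8, -1.06 for Mmp12 and -0.51 for Fn1. Those of Timp2 and Mmp19 for MS-275 and of Fn1 for CXD101 were below a fold of 1.5. That of Mmp13 was 0.42 with a pseudocount of 0.1 (adjusted p = 0.555). Adam8 was above vehicle in the 4 treated PMN-MDSC libraries and below it in the 4 treated M-MDSC libraries, whereas Mmp12 was below vehicle in all 8 treated libraries.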

How the results depend on the processing

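Of the alternatives that kept all libraries, 439 values of called genes kept their call and 35 lost it, none with a change of direction, and when 1 library was left out 287 kept it and 29 lost it. Some of these outcomes were fixed in advance, so the counts do not measure how robust the calls are. Removing the fold limit cannot end a call, and leaving out a library outside a comparison leaves the log2 difference of that comparison unchanged. With a fold limit of 2, the number of the 9 genes called was 3 for MS-275 against vehicle in M-MDSCs (6.5% of all genes), 0 for MS-275 against CXD101 in M-MDSCs (1.21%), 1 for the same comparison in PMN-MDSCs (0.358%), 5 for PMN-MDSCs against M-MDSCs (13.2%) and 1 for the difference in response to MS-275 (5.95%). With no fold limit, 5 genes differed between MS-275 and CXD101 in M-MDSCs (13.7%). In PMN-MDSCs that comparison gave 0 genes with no filter on low values (0.0254% of 15730 genes) and 1 with no intensity trend (0.313%), and the cause was not tested.

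Leaving out 1 library gave 0 to 3 called genes for MS-275 against CXD101 in PMN-MDSCs, with 0.0898% to 0.207% of all genes called where it gave 0. Among values not called, leaving out 1 library moved the log2 difference across 0 in these ranges. In M-MDSCs under CXD101, Mmp13 ranged from -0.10 to 0.30 and Timp2 from -0.27 to 0.016. For MS-275 against CXD101, Vcan ranged from -0.086 to 0.25 and Mmp14 from -0.17 to 0.29 in M-MDSCs, and Vcan from -0.14 to 0.21 in PMN-MDSCs. Mmp19 in PMN-MDSCs under MS-275 ranged from -0.085 to 0.11. For the difference in response to MS-275, Mmp14 ranged from -0.50 to 0.20, Thbs1 from -0.10 to 0.27 and Vcan from -0.11 to 0.23, and for that to CXD101, Mmp14 ranged from -0.15 to 0.55, Thbs1 from -0.0013 to 0.37 and Vcan from -0.062 to 0.28. Quantile normalization turned Mmp13 under CXD101 in M-MDSCs to -0.18, and for the difference in response to MS-275 it turned Mmp14 to 0.028 and Thbs1 to -0.46 (adjusted p = 0.0381). For that difference a pseudocount of 0.1 turned Mmp14 to 0.35, and rescaling without S100a8 and S100a9 turned Thbs1 to -0.035 and Vcan to -0.053. Rescaling also turned Mmp19 in PMN-MDSCs under MS-275 to -0.036. Over all genes it moved the share of higher calls in the difference in response to MS-275 from 47.7% to 32.9%. The cause of these turns was not tested.

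The labels give each group replicates 1 and 2. Deviations of same-numbered libraries correlated between -0.126 and 0.179 over the 15 pairs of groups, above 0.1 in 1 of them. With 2 libraries per group, this does not decide whether libraries of the same number share animals or a sort. A replicate block gave the same numbers of called genes, 6 and 4 against vehicle in each cell type for MS-275 and CXD101, 3 between the inhibitors in each, 8 between the cell types, and 4 and 2 for the differences in response. A crossed pairing, chosen after seeing the data, gave 6 for MS-275 against vehicle in PMN-MDSCs and 8 between the cell types. Depth limited Timp1, which rested on a small number of reads.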
